A study of Mus musculus with 2 samples.

Results

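Glul, Oat, Slc1a2, Lhpp, Axin2, Cyp2e1, Cyp1a2, Cyp7a1, Gulo and Aldh1a1 are grouped here as genes of pericentral hepatocytes, the liver cells around the central vein of each lobule. They were chosen by symbol, with earlier results of these data known. They are 10 of the 31053 features counted in each of 2 single-cell libraries from the tumour region of mouse liver. The mice were C57BL/6, had been kept for 15 months on a diet named CD-HFD and were recorded as 17 months old. 1 library is labelled control and the other FABP5 inhibitor, a compound directed at a fatty acid binding protein and given from month 13. Neither the treatment of the control mice nor the number of mice per library is stated in the labels. The tissue was the region of hepatocellular carcinoma (HCC); per the labels' protocols it was digested with collagenase, enriched for live cells with an Annexin V kit and made into 10x Genomics 3′ libraries. Each captured RNA molecule carries a unique molecular identifier (UMI), so levels are given as UMIs per 1000000 UMIs (CPM) of the barcodes in question. With 1 library per group there is no test between groups: intervals are exact 95% intervals that cover counting error only, and treatment, animal, tumour and library preparation cannot be told apart.

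Hepatocytes divide their work along the lobule. Those next to the central vein receive Wnt ligands from the central vein endothelium, and the resulting beta-catenin activity keeps glutamine synthesis, many cytochrome P450 enzymes and glutamate uptake in that zone. Urea synthesis and gluconeogenesis lie at the opposite, periportal end, and liver tumours with activating beta-catenin mutations are known for high glutamine synthetase.

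TCF/LEF factors, which carry beta-catenin to DNA, bind a core written CTTTGA. The promoters below are shown because of the pattern of shared barcodes described later. Oat stands at 1 end of it and Slc1a2, Cyp1a2 and Cyp2e1 at the other, while Glul was found with both. RefSeq promoter entries on GRCm38.p6 were matched for 7 of the 10 genes, with 8 entries in all because Aldh1a1 has a pair of them. The 250 bases before the annotated start are printed 5′ to 3′ on the gene's strand, with each match to CTTTGA or its reverse complement in capitals. The windows are chr1:153899679-153899928 (+) for Glul, chr7:132576399-132576648 (-) for Oat, chr2:102706188-102706437 (+) for Slc1a2, chr9:57683656-57683905 (-) for Cyp1a2 and chr7:140763569-140763818 (+) for Cyp2e1.
Glul: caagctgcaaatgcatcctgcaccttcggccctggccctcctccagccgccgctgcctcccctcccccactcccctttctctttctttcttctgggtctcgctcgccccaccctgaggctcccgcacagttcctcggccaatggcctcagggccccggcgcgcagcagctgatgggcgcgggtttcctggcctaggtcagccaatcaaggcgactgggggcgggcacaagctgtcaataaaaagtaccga
Oat: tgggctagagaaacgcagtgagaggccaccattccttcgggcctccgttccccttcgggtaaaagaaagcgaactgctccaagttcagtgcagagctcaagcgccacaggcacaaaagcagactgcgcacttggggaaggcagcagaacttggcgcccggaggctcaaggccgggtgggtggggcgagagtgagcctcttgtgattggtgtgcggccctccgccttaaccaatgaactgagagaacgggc
Slc1a2: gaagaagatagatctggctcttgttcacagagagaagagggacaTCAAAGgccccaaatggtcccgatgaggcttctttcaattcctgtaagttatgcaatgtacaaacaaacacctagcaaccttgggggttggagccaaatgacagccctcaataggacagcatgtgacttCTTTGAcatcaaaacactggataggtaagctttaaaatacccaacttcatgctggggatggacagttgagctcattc
Cyp1a2: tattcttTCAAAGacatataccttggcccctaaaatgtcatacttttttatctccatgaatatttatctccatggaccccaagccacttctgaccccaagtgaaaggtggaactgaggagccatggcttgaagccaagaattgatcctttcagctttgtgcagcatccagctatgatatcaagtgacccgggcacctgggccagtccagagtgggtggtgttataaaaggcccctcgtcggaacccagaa
Cyp2e1: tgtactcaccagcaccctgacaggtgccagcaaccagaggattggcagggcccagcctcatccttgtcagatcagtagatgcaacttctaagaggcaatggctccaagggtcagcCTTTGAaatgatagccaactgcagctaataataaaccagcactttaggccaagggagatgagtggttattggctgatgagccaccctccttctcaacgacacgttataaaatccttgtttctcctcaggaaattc
The core was absent from the Glul, Oat and Axin2 windows. Slc1a2 held 2 matches, which began 77 bases (same strand) and 206 bases (opposite strand) before its start. Cyp2e1 held 1 at 135 bases and Cyp1a2 held 1 at 243 bases on the opposite strand. The upstream Aldh1a1 entry, chr19:20492333-20492582 (+), held 3, at 88, 130 and 147 bases, and the other Aldh1a1 entry held none. In all, 4 of 8 entries held the core, against 13.8% of 32851 promoter windows of the same length (4544 windows). The longer form CTTTGAA, which overlaps the core, was in 3 of 8 entries and in 4.46% of all windows. The windows of Slc1a2, Cyp2e1, Cyp1a2 and the second Aldh1a1 entry reach into or lie within the gene's annotated span, because their RefSeq starts are not at its first base. A match is a string of letters and not a binding site, and its absence says only that the letters are not in this window.

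Hepatocyte barcodes were those with at least 20 UMIs of Alb, Apoa1, Ttr and Fabp1 together, at most 1 UMI of the leukocyte gene Ptprc, and a mitochondrial share of no more than 25% of UMIs. This left 266 of 9493 barcodes (2.80%) in the control library and 131 of 10649 (1.23%) in the inhibitor library. Their median depth was 5979 and 3838 UMIs, with a median of 1597 and 1270 genes, and a median mitochondrial share of 7.63% and 0.924%. The libraries held 53378693 and 68074929 UMIs and shared 29 barcode sequences, 1 of which was a hepatocyte barcode, in the inhibitor library. Without the mitochondrial limit the counts became 1847 barcodes in the control library and 169 in the inhibitor library, so the limit removed 1581 and 38. Other markers differed as well. The summed level of the 7 cholangiocyte and progenitor markers had a median of 936 CPM in control barcodes, with a UMI in 189 of 266 and a highest value of 54600, against a median of 0 with a UMI in 7 of 131 and a highest value of 8483 in inhibitor barcodes, where Krt7 and Epcam were at 0. Pooled over barcodes, leukocyte markers summed to 679 and 453 CPM, endothelial markers to 87.3 and 5.57 CPM, stellate and fibroblast markers to 618 and 11.1 CPM, and haemoglobin with Alas2 to 38081 and 2946 CPM. Per barcode, leukocyte markers went the other way, with medians of 46.5 and 191 CPM and a UMI in 54.9% and 70.2% of barcodes. Haemoglobin with Alas2 had medians of 295 and 378 CPM and highest barcodes of 930240 and 843257 CPM. The endothelial and the stellate and fibroblast medians were 0 in both libraries. The part of these differences in the results that follow was not tested beyond the alternatives given with them.

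All 10 genes were higher in the hepatocyte barcodes of the inhibitor library. Their summed level was 498 CPM (control) and 21163 CPM (inhibitor). The 10 log2 ratios had a median of 7.23, against a median of -0.12 over the 9845 features with at least 20 UMIs. Of those features, 21.6% were at least 1.5-fold higher in the inhibitor library and 32.9% at least 1.5-fold lower, whereas all 10 genes were at least 1.5-fold higher. Oat, Glul, Cyp2e1 and Lhpp were among the 10 highest ratios of all features tested, at ranks 1, 4, 7 and 8. Because the set was chosen with earlier results of these data known, its count and ranks describe it and are no independent support.

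Glul, glutamine synthetase, which joins ammonia to glutamate, had 86 UMIs in the control (28.9 CPM, interval 23.1 to 35.6) and 8893 UMIs in the inhibitor library (7074 CPM, 6928 to 7223). The log2 ratio was 7.94 (interval 7.63 to 8.26), or 245-fold. Oat, ornithine aminotransferase, which feeds ornithine into the glutamate pool, had 23 UMIs (7.72 CPM) and 12074 UMIs (9604 CPM), a log2 ratio of 10.28 (9.69 to 10.94) and the highest of any feature. Single barcodes were separated in the same way. Glul in inhibitor barcodes ran from 0 to 26846 CPM with a median of 6906 and quartiles of 4148 and 9508, and in control barcodes from 0 to 2286 CPM with a median of 0. Oat ran from 0 to 26405 CPM with a median of 10749 in inhibitor barcodes and from 0 to 2286 CPM with a median of 0 in control barcodes. For each of the 2 genes, 113 of the 131 inhibitor barcodes lay above the highest control barcode, so the libraries overlapped only in the lowest inhibitor barcodes.

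**Figure D1:**
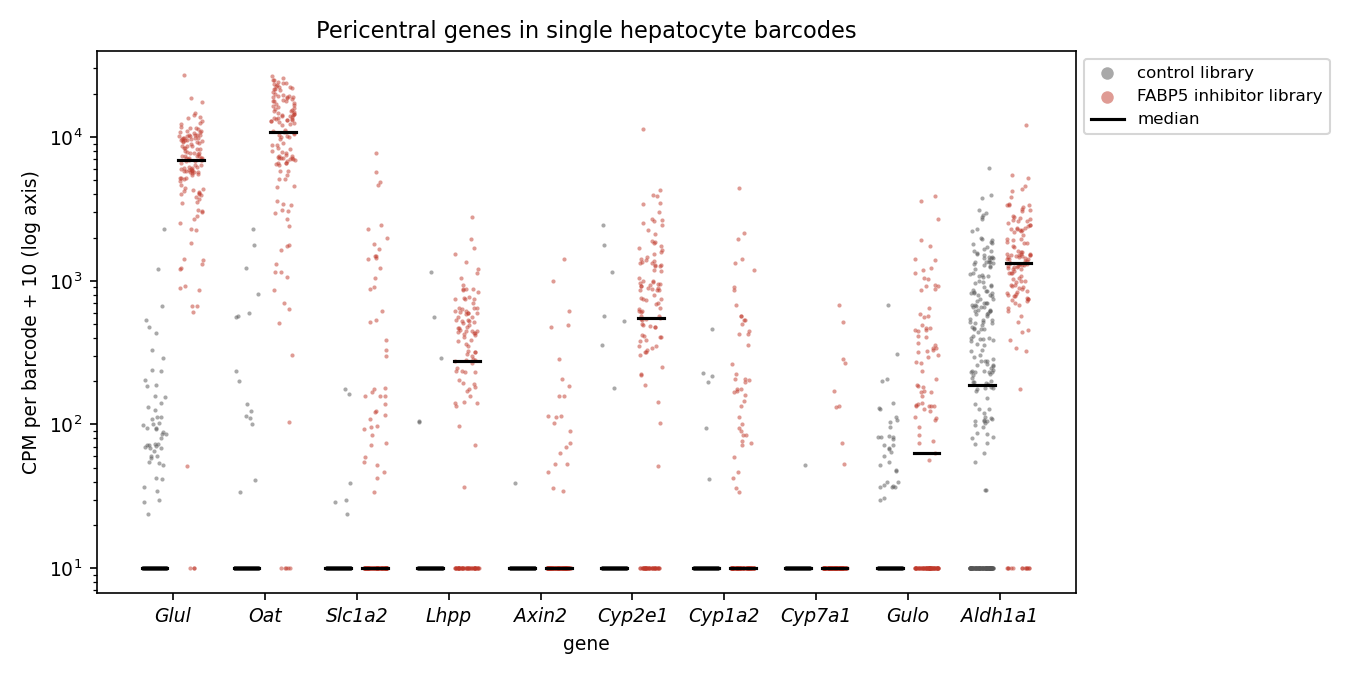
CPM per hepatocyte barcode plus 10, on a log axis, for each of the 10 genes, with 266 control barcodes (grey) and 131 inhibitor barcodes (red). Black lines are medians and points at 10 have no UMI. Glul and Oat form bands around medians of 6906 and 10749 CPM in the inhibitor library, Aldh1a1 overlaps between libraries, and Slc1a2, Axin2, Cyp1a2 and Cyp7a1 have a median of 0 in both.

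Slc1a2, the glutamate transporter GLT-1, had 11 UMIs in the control (3.69 CPM) and 717 in the inhibitor library (570 CPM), a log2 ratio of 7.27 (6.42 to 8.28). Lhpp, a phosphatase that acts on phosphohistidine, had 5 UMIs (1.68 CPM) and 401 UMIs (319 CPM), a log2 ratio of 7.57 (6.34 to 9.20). Axin2, a scaffold of the beta-catenin destruction complex that is itself switched on by Wnt signalling, had 1 UMI and 43 UMIs (0.336 and 34.2 CPM), a log2 ratio of 6.67 (4.12 to 12.01). The wide interval for Axin2 follows from the single control UMI. These 3 genes differed in how evenly they were spread. Lhpp had a median of 268 CPM per inhibitor barcode, while Slc1a2 had a median of 0 and a highest barcode of 7722 CPM.

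Cyp2e1, the P450 that oxidises ethanol and paracetamol, had 16 UMIs in the control (5.37 CPM) and 1347 in the inhibitor library (1071 CPM), a log2 ratio of 7.64 (6.94 to 8.45). Cyp1a2, which metabolises caffeine, had 7 UMIs (2.35 CPM) and 429 UMIs (341 CPM), a log2 ratio of 7.18 (6.13 to 8.51). Cyp7a1, the rate-limiting enzyme of bile acid synthesis, had 2 UMIs (0.671 CPM) and 80 UMIs (63.6 CPM), a log2 ratio of 6.57 (4.67 to 9.64). Cyp2e1 had UMIs in 94 of 131 inhibitor barcodes, but single barcodes weighed on the other 2. For Cyp1a2, 1 inhibitor barcode held 253 of the 429 UMIs (59.0%), and without it the level was 147 CPM and the log2 ratio 5.96. For Cyp7a1, 1 barcode held 32 of 80 UMIs, and without it the level was 39.7 CPM and the log2 ratio 5.89. For Glul and Oat the richest barcode held 6.97% and 4.70% of the gene's UMIs, and the ratios without it were 7.89 and 10.25.

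Gulo, which makes the last step of vitamin C synthesis in mice, and Aldh1a1, which oxidises retinal to retinoic acid, had the smallest ratios. Gulo had 46 UMIs in the control (15.4 CPM) and 539 in the inhibitor library (429 CPM), which was 27.8-fold higher. Aldh1a1 had 1287 UMIs (432 CPM) and 2082 UMIs (1656 CPM), a log2 ratio of 1.94 (1.84 to 2.04), or 3.83-fold. Aldh1a1 was the only one of the 10 with a nonzero median in control barcodes, 177 CPM against 1323 CPM, and its ranges overlapped: 1 of 131 inhibitor barcodes lay above the control maximum of 6088 CPM. At rank 323 of the ratios it stood far from the other members.

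The genes also differed in how they were spread over inhibitor barcodes. The 14 barcodes richest in a gene held 45.1% of the UMIs of Lhpp, 48.1% of Oat, 48.2% of Aldh1a1 and 50.7% of Glul. The corresponding share was 72.5% for Cyp2e1, 79.1% for Axin2, 81.6% for Gulo, 92.1% for Cyp1a2, 94.1% for Slc1a2 and 100% for Cyp7a1. Depth moved with this: the deepest 10% of inhibitor hepatocyte barcodes held 42.5% of all UMIs, 25.8% of Oat, 28.7% of Lhpp and 45.4% of Glul, but 73.8% of Gulo, 76.8% of Slc1a2 and 87.6% of Cyp1a2. The part of deep barcodes, including possible doublets, in the second group of genes was not tested beyond leaving out the deepest 5%, after which the median log2 ratio of the 10 genes was 6.29.

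To compare detection at 1 depth, each barcode was thinned to 1000 non-mitochondrial UMIs, which left out 40 control and 13 inhibitor barcodes. Glul was then found in 7 of 226 control barcodes (3.10%) and 109 of 118 inhibitor barcodes (92.4%), and Oat in 3 (1.33%) and 108 (91.5%). Before thinning the shares were 19.9% and 97.7% for Glul and 6.02% and 96.2% for Oat. T cell barcodes, with median depths of 3932 and 4216 UMIs, had Glul in 1.58% and 3.12% and Oat in 3.93% and 5.27% after thinning. Set against the 4 hepatocyte genes, control T cells had 80.1 times the Glul and 491 times the Oat of hepatocyte barcodes without the mitochondrial limit. Inhibitor T cells had 2.11 and 2.82 times, or 2.49 and 2.79 times against hepatocyte barcodes within the limit. How much of these T cell shares is free RNA was not tested. In control barcodes the share of Oat was below that of T cells. Aldh1a1 was found in 30.5% of control and 73.7% of inhibitor barcodes after thinning (61.3% and 90.1% before). Cyp2e1 was found in 0.442% and 44.1% (2.63% and 71.8% before), against 0.0546% and 0.513% in T cells.

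Lhpp was found in 0.885% and 28.0% of thinned barcodes (1.88% and 65.6% before thinning), Gulo in 1.33% and 22.9% (13.2% and 51.1%), Slc1a2 in 0.442% and 12.7% (2.26% and 35.1%) and Cyp1a2 in 0.442% and 8.47% (2.26% and 34.4%). Axin2 was found in no thinned control barcode and in 4.24% of inhibitor barcodes (0.376% and 17.6% before). Cyp7a1 was found in none of either library after thinning, which was too shallow for it, and in 0.376% and 6.87% before. The number of the 10 genes found together separated the libraries. No thinned control barcode had 3 or more, and 143 of 226 (63.3%) had none. Among thinned inhibitor barcodes 99 of 118 (83.9%) had 3 or more, with a median of 4 and a maximum of 7. Without thinning, 21 of 266 control and 124 of 131 inhibitor barcodes had 3 or more.

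**Figure D2:**
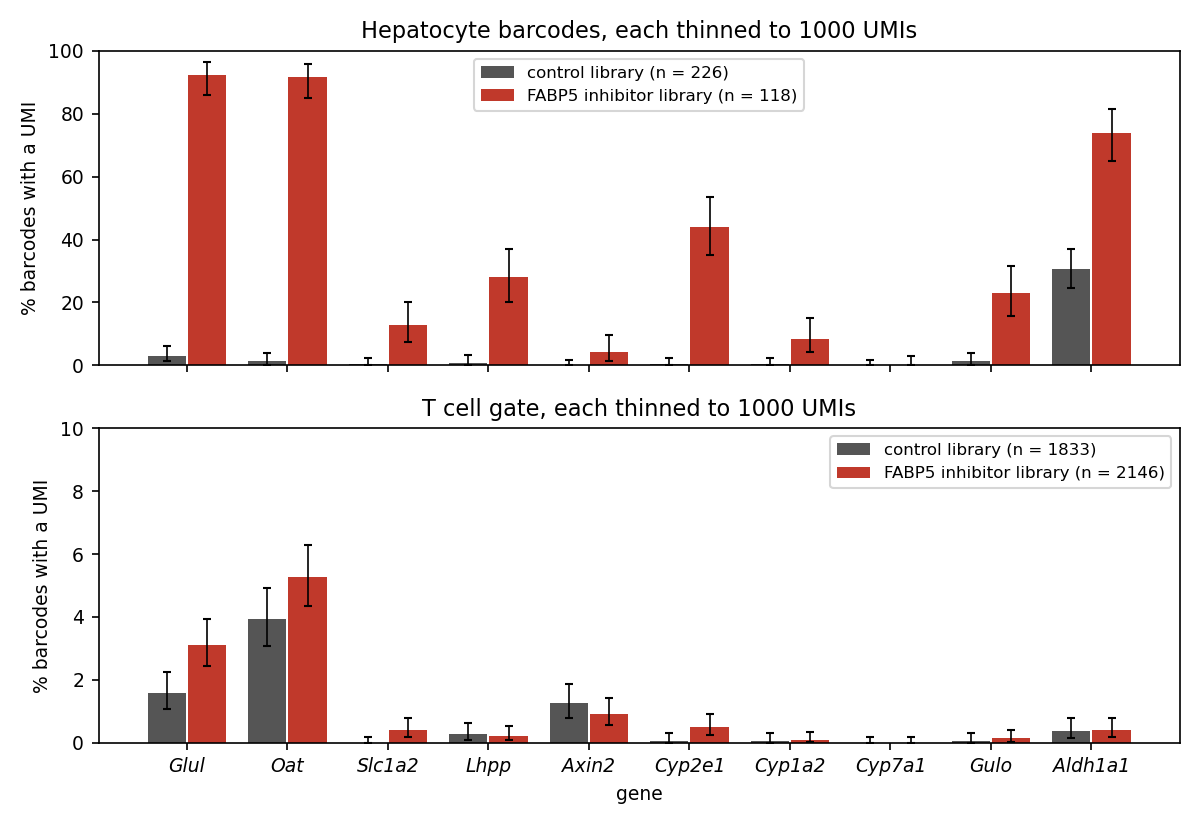
Share of barcodes with at least 1 UMI of each gene after thinning to 1000 non-mitochondrial UMIs, in hepatocyte barcodes (upper panel, 0 to 100%) and T cell barcodes (lower panel, 0 to 10%), with exact 95% binomial intervals. In inhibitor hepatocyte barcodes Glul and Oat reach 92.4% and 91.5%, while no gene exceeds 5.27% in T cells.

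The control library held few barcodes with both Glul and Oat. There were 4 among all 1847 control barcodes taken without the mitochondrial limit, and all 4 were within the limit. Of these, 1 barcode of 875 UMIs had 2 UMIs of Glul, 2 of Oat, 1 of Cyp2e1 and 1 of Lhpp. Another, of 3591 UMIs, had 1 of Glul, 2 of Oat, 1 of Lhpp and 3 of Aldh1a1. Both had no UMI of Spp1 or Tspan8, and the remaining 2 barcodes carried only 1 UMI each of Glul and Oat. At 1000 UMIs, which leaves out the first of them, no control barcode had both genes, whereas 104 of 118 inhibitor barcodes (88.1%) had both, 1.04 times the product of the single shares.

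Within the inhibitor library the genes fell into 2 patterns of shared barcodes. Across 118 thinned barcodes within the mitochondrial limit, log UMIs of Glul and Oat had a Pearson's r of 0.50. All 33 barcodes with Lhpp also had Oat, which was found in 108 of the 118. Glul, found in 109, was in all barcodes with Lhpp and equally in all 15 with Slc1a2, 27 with Gulo and 10 with Cyp1a2. Its r was 0.19 with Lhpp, 0.21 with Slc1a2, 0.13 with Gulo and 0.11 with Cyp1a2. Slc1a2 and Gulo had an r of 0.67, with both found in 10 barcodes out of 15 with Slc1a2 and 27 with Gulo. Cyp1a2 had an r of 0.44 with Gulo and 0.41 with Slc1a2, and Cyp2e1 had an r of 0.31 with each of those genes. Oat went the other way, with an r of -0.21 with Gulo and -0.18 with Slc1a2. These correlations describe barcodes of 1 library that share preparation and were brought to 1 depth, and many rest on few UMIs.

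The second pattern was clearest in the pooled counts of barcodes rich in mitochondrial RNA, but not all of them carried it. Of 38 such barcodes in the inhibitor library, 24 had a UMI of Glul, 23 of Gulo, 22 of Slc1a2, 22 of Cyp2e1 and 21 of Cyp1a2. The 38 inhibitor barcodes above the 25% limit were compared with the 131 below it, per 1000000 non-mitochondrial UMIs. Slc1a2 was 600 below and 4890 above, 8.16-fold higher (log2 3.03, 2.89 to 3.17). Gulo was 451 and 2097 (4.65-fold), Cyp1a2 359 and 1610 (4.49-fold), Cyp7a1 66.9 and 278 (4.15-fold), Axin2 36.0 and 141 (3.92-fold) and Cyp2e1 1127 and 3562 (3.16-fold). Glul and Aldh1a1 differed less, at 1.57-fold and 1.45-fold higher. Oat was lower, with 10098 below and 4495 above the limit (log2 -1.17, -1.26 to -1.07), and Lhpp was 335 and 273 with an interval that includes no change (log2 -0.30, -0.71 to 0.10). The 38 barcodes above the limit held 41.7% of the Slc1a2 UMIs of the whole library. In the 1581 control barcodes above the limit, Slc1a2 and Lhpp had no UMI, Glul had 32 and Oat 17 in 1823745 non-mitochondrial UMIs. The ratios between the libraries with no mitochondrial limit had a median of 8.52, with all 10 genes at least 1.5-fold higher, but 70.9% of the 10802 features tested were then also higher (12.7% lower, median 1.21).

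Splitting the inhibitor barcodes by Slc1a2 itself showed the partners. Of 141 thinned barcodes taken without the mitochondrial limit, 39 had Slc1a2, and 21 of these 39 but only 2 of the other 102 were above the limit. Gulo was found in 79.5% of barcodes with Slc1a2 and 15.7% of those without, Cyp2e1 in 79.5% and 44.1%, and Cyp1a2 in 38.5% and 6.86%. Oat was found in 74.4% and 95.1%, and Lhpp in 12.8% and 32.4%. Glul was found in 100% and 96.1%, so it accompanied both patterns. Within the mitochondrial limit the same split gave 66.7% and 16.5% for Gulo and 33.3% and 4.85% for Cyp1a2, but 93.3% and 91.3% for Oat and 33.3% and 27.2% for Lhpp, with 15 barcodes with Slc1a2. The lower detection of Oat and Lhpp beside Slc1a2 was therefore seen only with the barcodes above the limit, whereas the higher detection of Gulo and Cyp1a2 was seen with and without them.

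**Figure D3:**
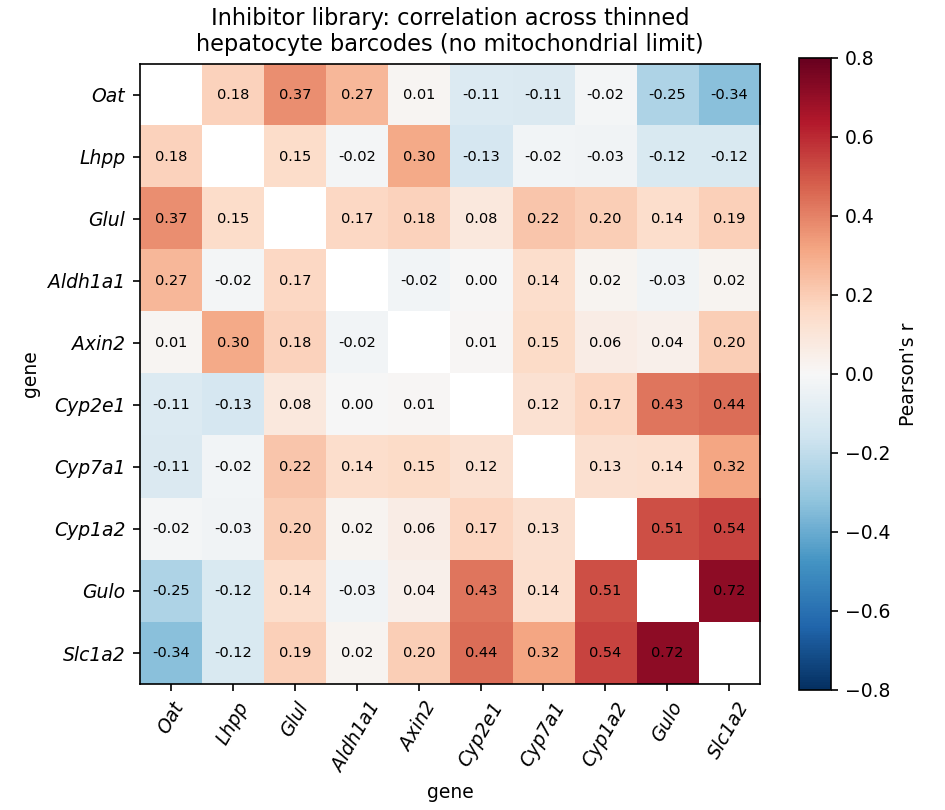
Pearson's r between log2(1 + thinned UMIs) of each pair of genes across 141 inhibitor hepatocyte barcodes without a mitochondrial limit. Towards the lower right, pairs of Slc1a2, Gulo, Cyp1a2 and Cyp2e1 run from 0.17 (Cyp2e1 and Cyp1a2) to 0.72 (Slc1a2 and Gulo). The lowest of these is below Glul with Cyp1a2 (0.20), and Cyp7a1 is drawn between Cyp2e1 and Cyp1a2. Glul and Oat share an r of 0.37, and Oat is negative against Slc1a2 (-0.34) and Gulo (-0.25).

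Genes most like Glul were ranked by the lower of its 2 within-library correlations over 226 and 118 thinned barcodes, among 921 genes found in at least 10% of barcodes in each library. The first 10 were Lamtor2, Tst, Cct5, Akr7a5, Pcyt2, Arhgap5, Ndufa8, Adh1, Grpel1 and Ppp1ca, and the highest lower correlation was 0.17, for Lamtor2. All of these correlations are weak, and those in the control rest on the 7 thinned barcodes with Glul. Of the other members only Aldh1a1 reached 10% of control barcodes (30.5%). The rest, such as Oat (1.33%), could not enter this ranking. In the inhibitor library alone, which was looked at after its values were seen, Oat came first (0.50), followed by Rgn (0.37) and Fmo5 (0.37).

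Other genes of the zone and its pathway gave context, in lists that were also chosen with earlier results of these data known. Of 20 further pericentral genes, 19 had enough UMIs, and 18 were at least 1.5-fold higher in the inhibitor library and none lower, with a median log2 ratio of 4.41. Rgn, a calcium-binding protein, had 51.4 and 4723 CPM (log2 6.52). Cyp2c29 had 1 and 297 UMIs (0.336 and 236 CPM, log2 9.46, 6.97 to 14.77). Gstm1, a glutathione transferase, was abundant in both at 5081 and 8609 CPM.

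Of 22 Wnt receptors, pathway components and targets, 18 were tested, 9 were higher, 2 lower and the median was 0.57. Nkd1, an inhibitor of Wnt signalling, had 2 and 223 UMIs (0.671 and 177 CPM) (log2 8.05), and Tbx3, a transcription factor, had 2 UMIs and 107 CPM (log2 7.31). Rnf43 and Znrf3, which remove Wnt receptors, had 10.4 and 15.9 CPM and 5.37 and 12.7 CPM, log2 ratios of 0.61 (-0.28 to 1.47) and 1.24 (0.15 to 2.34). These 2 genes and Sp5, Notum and Lgr5 were picked out after their values were seen. Sp5, Notum and Lgr5 had 1, 1 and 0 UMIs in the control and 51, 36 and 26 in the inhibitor library. Lgr5 was 20.5-fold higher, counting 0 as 3 UMIs over the library's hepatocyte barcodes. Ctnnb1, beta-catenin itself, had 171 and 158 CPM (log2 -0.12, -0.36 to 0.12). Ccnd1, cyclin D1, had 64.1 and 154 CPM. The central vein ligands Wnt2, Wnt9b and Rspo3 had UMIs in 1 control hepatocyte barcode and none in the inhibitor library, and over all barcodes Rspo3 had 78 and 7 UMIs, Wnt2 21 and 8, and Wnt9b 8 and 1.

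Of 18 periportal genes, 17 were tested, 2 were higher and 13 lower, with a median of -3.10. Arg1, arginase, had 342 CPM in the control and 3 UMIs in the inhibitor library (2.39 CPM, log2 -7.16, -9.44 to -5.61). Sds, serine dehydratase, had 593 and 0 UMIs, 83.4-fold lower with 0 counted as 3 UMIs (log2 -6.38, upper interval limit -6.08). Hsd17b13 had 617 and 28.6 CPM, while Ass1, an enzyme of the urea cycle, had 397 and 334 CPM. In single inhibitor barcodes Cyp2f2, Hal, Sds, Cps1 and Gls2 were not found after thinning, but Asl was found in 28 of 118 barcodes, all with Glul, and Ass1 in 32, of which 29 had Glul. Of 15 other genes of glutamate, glutamine and ornithine handling, 6 were higher and 6 lower, with a median of 0.30. Glud1, glutamate dehydrogenase, had 425 and 738 CPM, Got2 had 91.6 and 351 CPM, and Prodh, proline dehydrogenase, had 10.1 and 95.5 CPM. Gls2, the liver glutaminase, had 108 and 0 UMIs, 15.2-fold lower with 0 counted as 3 UMIs (log2 -3.93, upper interval limit -3.60).

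Genes around the P450 members had smaller ratios. Of 11 genes of bile acid synthesis and control, 8 were tested, 6 had ratios of at least 1.5-fold upwards, none downwards, and the median was 0.81. Amacr had 61.1 and 415 CPM, Baat 75.2 and 138 CPM, and the bile salt exporter Abcb11 2.69 and 31.8 CPM, while Cyp8b1 had no UMI in these hepatocyte barcodes and 36 and 21 UMIs over all barcodes. Of 7 genes of the aryl hydrocarbon receptor pathway, which induces Cyp1a2, 4 were tested, none was higher, 2 were lower and the median was -0.55. The receptor gene Ahr had 20.5 and 29.4 CPM, its partner Arnt 22.2 and 13.5 CPM, and the target Nqo1 32.6 and 19.1 CPM. Of 13 general hepatocyte genes 11 were lower and none was higher (median -1.73). Ahsg had 6296 and 781 CPM, Gc 3281 and 1192 CPM and Kng1 808 and 94.7 CPM.

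**Figure D4:**
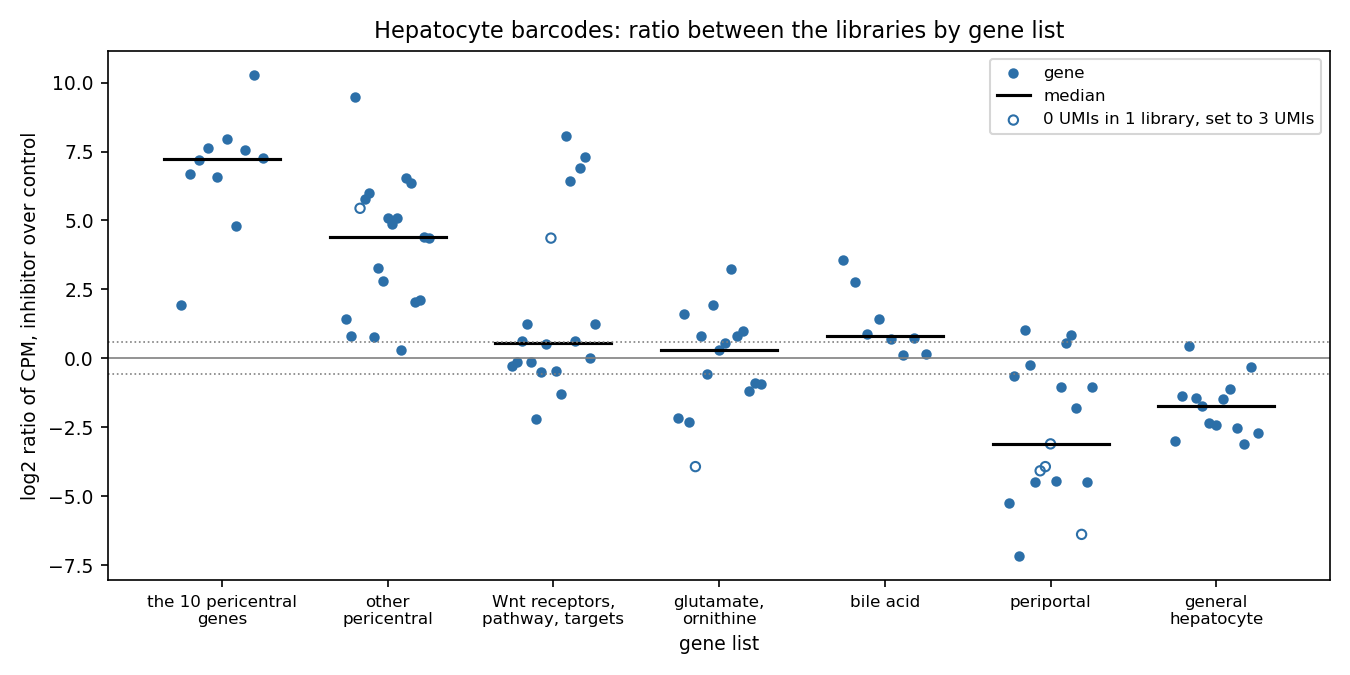
Log2 ratio of CPM in hepatocyte barcodes, inhibitor over control, for each gene with at least 20 UMIs in 7 lists, with the list median as a black line and 1.5-fold as dotted lines. Open circles had 0 UMIs in 1 library, set to 3 UMIs. The medians run from 7.23 for the 10 genes and 4.41 for other pericentral genes to -3.10 for periportal and -1.73 for general hepatocyte genes.

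The cells named by Spp1 and Tspan8, which mark bile duct and tumour-like epithelium, were mostly in the control library, where Spp1 had 10697 CPM in hepatocyte barcodes against 178 CPM, and Tspan8 1045 against 32.6 CPM. When barcodes with 5 or more UMIs of these 2 genes were left out, 156 control and 129 inhibitor barcodes remained. The median log2 ratio of the 10 genes was then 5.59, and all 10 were still at least 1.5-fold higher. Barcodes on either side of the threshold of 20 hepatocyte UMIs differed, most for Oat. Control barcodes just inside it (20 to 29 UMIs, 31 barcodes) had 53.0 CPM of Glul and 5.30 of Oat, and those just outside (10 to 19 UMIs, 147 barcodes) had 27.3 and 28.9. In the inhibitor library the 7 barcodes inside had 11391 and 10495 CPM, and the 11 outside had 7407 and 3301.

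Over all barcodes the differences were smaller, and in the control most UMIs of Glul, Oat and Axin2 lay outside hepatocyte barcodes. The median log2 ratio was 3.18, and 8 of the 10 genes were at least 1.5-fold higher, against 16.5% of 14987 features (23.2% lower, median 0.08). Slc1a2 had 0.412 and 37.9 CPM, Cyp1a2 0.318 and 15.6, Cyp2e1 0.937 and 42.7 and Cyp7a1 0.0749 and 2.69. Glul had 38.7 and 251 CPM and Oat 30.7 and 276. Axin2 (3.13 and 3.95 CPM) and Aldh1a1 (36.7 and 50.6 CPM) stayed within 1.5-fold.

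Leukocyte barcodes, with at least 2 UMIs of Ptprc and fewer than 20 of the hepatocyte genes, numbered 4832 and 8055. They held 73.5% of all Glul UMIs of the control library but 20.4% of those of the inhibitor library, and 75.3% and 15.0% of the Oat UMIs. Within leukocytes Glul was 52.4 and 60.3 CPM and Oat 42.7 and 48.8 CPM, both within 1.5-fold. Across leukocyte barcodes 8.6% of 13678 features were at least 1.5-fold higher in the inhibitor library and 26.6% lower. Pooled leukocytes thus did not match the hepatocyte differences of 245-fold in Glul and 1244-fold in Oat. For Glul this pool joins types that differed in opposite directions, as given next.

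Leukocyte types differed in which genes they held. Of the T cell, B cell, neutrophil, and monocyte or macrophage barcodes, Glul was highest in monocyte and macrophage barcodes, at 107 and 70.9 CPM in the control and inhibitor libraries. It was 16.6 and 30.7 CPM in T cell, 22.1 and 34.7 in B cell and 31.6 and 63.6 in neutrophil barcodes. In CPM, Glul was therefore lower in the inhibitor library in monocyte and macrophage barcodes and higher in the other types. The B cell values rest on 39 and 29 UMIs. Free RNA at the Glul to hepatocyte gene ratio of hepatocyte barcodes without the mitochondrial limit would give 156 of 329 inhibitor T cell UMIs. It would give 14.2 of 29 in B cell, 41.9 of 74 in neutrophil and 265 of 1922 in monocyte and macrophage barcodes. In the control these were 1.77 of 142, 0.311 of 39, 0.565 of 45 and 1.06 of 964. The part of free RNA in these differences was not tested. Axin2 lay in T cells: 94 UMIs (11.0 CPM) were counted there in the control and 115 UMIs (10.7 CPM) in the inhibitor library, with 1 UMI in the monocyte and macrophage barcodes of each library and none in B cell barcodes. T cell barcodes held 56.3% and 42.8% of all Axin2 UMIs, more than hepatocyte barcodes in either library.

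**Figure D5:**
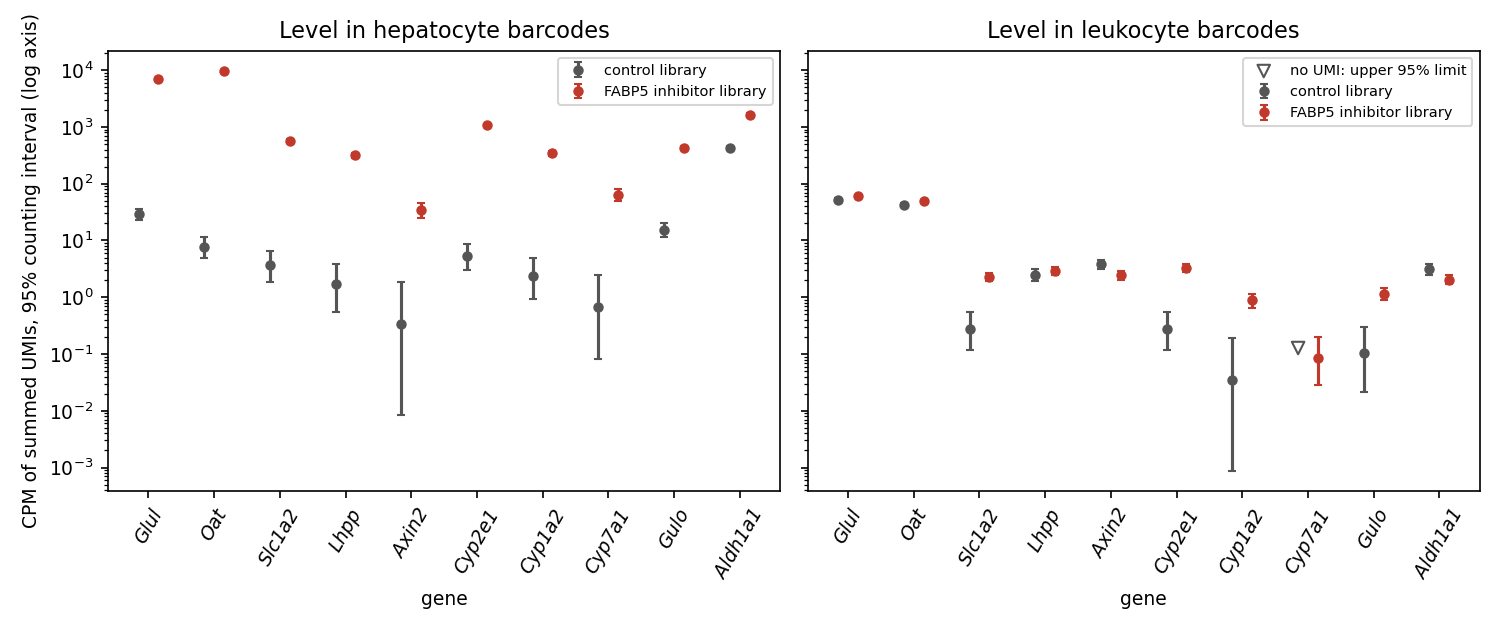
CPM of UMIs summed over hepatocyte barcodes (left) and leukocyte barcodes (right) in each library, on a log axis, with exact 95% Poisson intervals, and an open triangle for the upper limit where no UMI was counted. In leukocytes Glul and Oat lie at 42.7 to 60.3 CPM in both libraries, while Cyp2e1 and Slc1a2 are higher in the inhibitor library, at 3.28 and 2.28 CPM against 0.277 for each in the control.

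RNA from broken cells enters droplets of other cells, and 1 source keeps its genes in 1 ratio. Each gene was therefore set against 1000 UMIs of Alb, Apoa1, Ttr and Fabp1. In inhibitor leukocytes Cyp2e1 had 66.6 per 1000, against 42.5 in hepatocyte barcodes without the mitochondrial limit, Slc1a2 46.3 against 35.8, Gulo 23.5 (1.18 times the hepatocyte ratio), Cyp1a2 17.9 against 15.6 and Aldh1a1 41.3 against 52.7. These 5 lay between 0.785 and 1.56 times the hepatocyte ratio, and Cyp7a1, with 5 UMIs, at 0.622 times. The result depends on which hepatocyte barcodes are the reference: against those within the mitochondrial limit, a reference added after seeing the data, the same 5 lay at 2.95 times for Slc1a2, 2.26 for Cyp2e1, 1.99 for Gulo, 1.91 for Cyp1a2 and 0.909 for Aldh1a1. Against the reference without the limit, Glul (1223 against 229), Oat (991 against 261), Lhpp (59.2 against 9.21) and Axin2 (49.4 against 1.48) were at 3.80 to 33.4 times the hepatocyte ratio. Against the reference within the limit they were at 6.29, 3.75, 6.76 and 52.6 times. In the control, leukocyte barcodes had 93.8 per 1000 of Glul against 0.293 in hepatocyte barcodes and 76.4 of Oat against 0.0994. There Slc1a2 and Cyp2e1, with 8 UMIs each, were 18.1 and 5.85 times the hepatocyte ratio. Cyp1a2, with 1 UMI, was 1.66 times, Aldh1a1 1.47 times and Gulo, with 3 UMIs, 0.786 times. The control values also depend on the reference. Against control hepatocyte barcodes within the mitochondrial limit they were 3.43 for Slc1a2, 2.36 for Cyp2e1, 0.675 for Cyp1a2, 0.330 for Aldh1a1 and 0.308 for Gulo.

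The same ratio was compared between the libraries within leukocyte barcodes. Cyp2e1 was 0.495 per 1000 hepatocyte UMIs in the control (8 UMIs, interval 0.214 to 0.974) and 66.6 in the inhibitor library (190 UMIs, 57.4 to 76.7). Slc1a2 was 0.495 (8 UMIs, 0.214 to 0.974) and 46.3 (132 UMIs, 38.7 to 54.9), and Gulo was 0.185 (3 UMIs, 0.0382 to 0.542) and 23.5 (67 UMIs, 18.2 to 29.8). The denominator differed as well: the 4 hepatocyte genes summed to 559 CPM in control leukocyte barcodes and 49.3 CPM in inhibitor ones. Glul (93.8 and 1223 per 1000) and Oat (76.4 and 991) were also higher in this ratio, although within 1.5-fold in CPM. In CPM of leukocyte barcodes, Cyp2e1 was 0.277 and 3.28, Slc1a2 0.277 and 2.28 and Gulo 0.104 and 1.16. Within hepatocyte barcodes Alb had 16594 and 4591 CPM and Fabp1 1460 and 26308 CPM. The part of the denominator in these ratios was not tested.

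On GRCm38 (GENCODE M21), where all 10 gene identifiers were found, Oat (chr7:132557478-132576398, minus strand) and Lhpp (chr7:132610638-132706420, plus strand) lie 34240 bases apart with 2 genes between them. An annotated form of Fgfr2 spans both, on the strand of Oat, and how reads in shared exons were counted is not given in the sources used here. Glul lies at chr1:153899944-153909723, Slc1a2 at chr2:102658659-102790784, Axin2 at chr11:108920349-108950783, Cyp2e1 at chr7:140763739-140774987 and Aldh1a1 at chr19:20492715-20643465, all on the plus strand. Cyp1a2 at chr9:57676937-57683703, Cyp7a1 at chr4:6265612-6275633 and Gulo at chr14:65986786-66009207 lie on the minus strand. All 10 are protein-coding, and 6 of the 10 overlap another annotated gene.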

How the data were processed

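The values deposited for the 2 libraries are raw UMI counts, 1 per gene and barcode. Cell Ranger 5.0.1 wrote them, per the file headers. Build mm9 and the tools R 3.0 and Seurat 3 are named in the submitters' processing notes, whereas 31011 of the 31053 feature identifiers were found in GENCODE M21 on GRCm38, so the build behind the counts is uncertain. The 10 genes and all gene lists were chosen with earlier results of these data known. UMIs were summed per library over barcodes and given as CPM. A sum of 0 was set to 3 UMIs, features needed 20 UMIs over both libraries, and 1.5-fold was the size named. Poisson, binomial and conditional binomial intervals (95%) cover counting error only. No doublet caller was run. T, B, and monocyte or macrophage barcodes met 1 gate of marker UMIs. Of each list the 2 genes with most UMIs and the 2 with the largest ratios were named. Tf of the general hepatocyte list was not matched (13 genes used). Python 3.11.15, numpy 2.4.6, scipy 1.17.1 and pandas 2.3.3 were used. The functions for ratios and intervals were tested on simulated data, and the function for thinning on the control hepatocyte barcodes. Alternatives were other thresholds, denominators, weightings and thinning depths.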

Additional observations from a re-analysis of the deposited data

How the results depend on the processing

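The count of 10 genes at least 1.5-fold higher and 0 lower in hepatocyte barcodes was the same under every alternative that gave it, except that 9 were tested and 9 higher with at least 50 UMIs per gene. The median log2 ratio of 7.23 became 9.09 per 1000000 UMIs of general hepatocyte genes and 6.09 with each barcode weighted equally. Under alternatives chosen after seeing the data it became 5.59 without barcodes with 5 or more UMIs of Spp1 and Tspan8, 9.12 in barcodes over the mitochondrial limit only, and 6.78 without the inhibitor barcode richest in each gene. For single genes 159 alternative ratios were computed, all 159 at least 1.5-fold higher, from 1.65 to 12.41 on the log2 scale, and 49 moved outside the counting interval. Processing also moved other features: 21.6% were at least 1.5-fold higher within the mitochondrial limit and 70.9% without it. Barcodes over the limit had medians of 255 genes and 87.3% mitochondrial UMIs in the control, against 1768.5 genes and 77.6% in the inhibitor library. The part of these differences in the larger ratios was not tested. Over all barcodes the median of 3.18 became 2.97 with at most 25% mitochondrial UMIs and 2.97 per 1000000 non-mitochondrial UMIs. The share of hepatocyte barcodes among those within the limit differed by a log2 ratio of -1.44, and by -3.62 without the limit. The difference in Glul detection, 89.3 percentage points, was 77.8 without thinning. Glul and Oat together in control barcodes, 0 times the product of their shares, became 13.4 without barcodes over 1% haemoglobin, 9.43 at 500 UMIs, 4.90 at 2000 UMIs and 1.25 without thinning, each on few barcodes; in the inhibitor library it stayed between 1.02 and 1.04. No paired analysis was possible because each group has 1 library and the labels give no replicate numbers. Depth limits Axin2 and Cyp7a1, with 1 and 2 control UMIs in hepatocyte barcodes.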
